A study of Mus musculus with 12 samples.

Results

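Antiviral interferon-stimulated genes encode the proteins with which a cell senses, restricts and degrades viral RNA, and 45 of them were followed in sorted muscle progenitors. The members were given by symbol, and all 45 were found among the 54100 genes of the count table. Of these, 34 had enough counts to be tested and 11 did not. As background, type I interferon binds a receptor whose kinases phosphorylate STAT proteins. STAT2 joins IRF9 in a complex that enters the nucleus and binds the interferon-stimulated response element (ISRE) of its targets. Many of the targets keep a low level without infection, which the same factors maintain in fibroblasts and other stromal cells.

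RNA was sequenced from fibro-adipogenic progenitors, the Pdgfra+ mesenchymal cells between muscle fibres, sorted from mouse plantaris muscle. The groups were cdKO overload, cdKO sham, control overload and control sham, with 3 libraries each from tubes of 1000 cells. Mice of every group carried Pdgfra-CreERT2, a tamoxifen-inducible Cre driven by the gene that also marks the sorted cells. The cdKO mice carried in addition Yap1 flox/flox and Taz flox/flox alleles, which remove a pair of Hippo pathway co-activators, while the controls had the driver without floxed alleles. Muscles were either overloaded, a surgery that makes the plantaris grow by raising its work, or sham-operated. No source used here gives the age of the mice, the time after surgery, the tamoxifen schedule or whether each tube came from its own animal. The p-values thus speak to the variation among these tubes, and that variation may be technical.

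Library totals ran from 336437 to 1564581 counts, and a floor of 3 counts corresponded to 1.95 to 9.72 CPM, the counts scaled to library size with TMM factors. All 8 progenitor markers passed the count filter, and their summed level was 66200 to 70100 CPM in overloaded cdKO, 44400 to 50900 CPM in sham cdKO, 46500 to 66400 CPM in overloaded control and 43600 to 51800 CPM in sham control muscle. In overloaded muscle most of that sum was Col1a1 and Col3a1, which were higher under overload in both genotypes. In sham muscle Dcn was the largest marker. Its mean was 21800 CPM in sham and 7771 CPM in overloaded cdKO, and 26250 CPM in sham and 5241 CPM in overloaded control muscle. Of the 8 markers, 3 were lower under overload in cdKO and 4 in control mice. The log2 fold change of Dcn was -1.49 ± 0.29, adjusted p = 0.00154 in cdKO and -2.33 ± 0.30, adjusted p = 7.42e-06 in control mice, and that of Pi16 was -1.31 ± 0.31, adjusted p = 0.00713 and -1.78 ± 0.32, adjusted p = 0.000337. Dpp4 (-2.32 ± 0.44, adjusted p = 0.000515) and Cd34 (-0.98 ± 0.26, adjusted p = 0.00888) were lower in control mice, with -1.08 ± 0.43, adjusted p = 0.0971 and -0.33 ± 0.26, adjusted p = 0.449 in cdKO. Pdgfra was at -1.09 ± 0.26, adjusted p = 0.0062 in cdKO and -0.48 ± 0.26, adjusted p = 0.186 in control mice. Whether these shifts bear on the antiviral genes was not tested. Wwtr1, the gene of Taz and the first check of the genotype, had 18.2 to 40.6 CPM in the cdKO libraries, against 108 to 174 CPM in the control libraries. With edgeR's quasi-likelihood test and Benjamini-Hochberg adjustment, which gave every p below, the log2 fold change of cdKO over control was -2.77 ± 0.28, adjusted p = 1.83e-06 under overload. The sham value was -1.74 ± 0.27, adjusted p = 0.00733. Here and below, the value after ± a fold change is its standard error. Yap1 did not pass. It had 22.1 to 40.2 CPM in overloaded cdKO against 39.7 to 91.3 CPM in overloaded control muscle (-0.85 ± 0.32, adjusted p = 0.586). It had 56.2 to 71.5 CPM in sham cdKO against 91.6 to 108 CPM in sham control muscle (-0.61 ± 0.30, adjusted p = 0.999). Which exons are floxed is not stated in the material at hand, and a 3′ tag outside them would not report the deletion. On the first principal component of all tested genes, cdKO overload replicate 2 (7.39) and control overload replicate 1 (15.8) lay nearer to the sham libraries (-39.9 to -28.7) than the other overloaded libraries did (32.6 to 61.1).

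The ISRE lies in the promoter, so 4 promoters are printed. They belong to the 3 members with the smallest p under overload in control mice that hold an ISRE core, and to Sp100, which had the smallest p and holds none. The sequences are RefSeq promoters of GRCm38.p6, from 250 bases before to 50 after the start, read 5′ to 3′ on the gene's strand. Capitals mark the ISRE core, which is GAAA, any 2 bases and GAAA again, or the reverse complement TTTC, any 2 bases and TTTC. The Stat2 promoter is chr10:128270248-128270547 on the plus strand, that of Ifit1 chr19:34640639-34640938 on the plus strand, that of Trim30a chr7:104446076-104446375 on the minus strand, inside the GENCODE bounds of the gene, and that of Sp100 chr1:85649738-85650037 on the plus strand.
Stat2: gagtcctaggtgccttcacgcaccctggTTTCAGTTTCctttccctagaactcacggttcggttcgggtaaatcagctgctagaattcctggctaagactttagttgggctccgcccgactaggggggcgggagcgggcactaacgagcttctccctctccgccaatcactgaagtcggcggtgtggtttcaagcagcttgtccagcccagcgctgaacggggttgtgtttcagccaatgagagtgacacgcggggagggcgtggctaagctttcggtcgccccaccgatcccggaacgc
Ifit1: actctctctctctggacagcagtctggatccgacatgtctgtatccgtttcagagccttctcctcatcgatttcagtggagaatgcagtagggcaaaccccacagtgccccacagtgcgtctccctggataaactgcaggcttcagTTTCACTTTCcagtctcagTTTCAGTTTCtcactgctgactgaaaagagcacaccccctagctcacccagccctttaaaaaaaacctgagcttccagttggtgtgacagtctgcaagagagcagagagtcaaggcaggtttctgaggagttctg
Trim30a: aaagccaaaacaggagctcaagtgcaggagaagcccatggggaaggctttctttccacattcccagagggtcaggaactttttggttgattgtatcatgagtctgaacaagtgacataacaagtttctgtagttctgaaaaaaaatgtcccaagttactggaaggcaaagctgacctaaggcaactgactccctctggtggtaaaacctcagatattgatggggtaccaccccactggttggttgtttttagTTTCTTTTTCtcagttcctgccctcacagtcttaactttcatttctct
Sp100: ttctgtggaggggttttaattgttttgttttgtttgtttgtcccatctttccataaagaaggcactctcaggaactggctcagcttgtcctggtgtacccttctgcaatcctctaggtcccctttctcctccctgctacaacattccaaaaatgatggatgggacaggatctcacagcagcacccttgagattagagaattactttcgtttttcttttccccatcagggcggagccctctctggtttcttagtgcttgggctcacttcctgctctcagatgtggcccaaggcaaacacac

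In Stat2 the match began 222 bases upstream of the start, in Ifit1 the matches began 104 and 85 bases upstream, and in Trim30a 2 bases after it. A promoter was listed for 36 of the 45 members, and 15 of the 36 (41.7%) held the ISRE core on either strand, against 3.99% of 27025 genes with a promoter. The core was present in 8 of 20 members that were lower under overload in control mice, in 5 of 9 that were tested and did not pass, and in 2 of 7 that were not tested. Isg15, which encodes the ubiquitin-like modifier ISG15, held 3 overlapping matches that began 78, 72 and 66 bases upstream. The GAS core TTCNNNGAA, an element of interferon gamma responses that reads the same on both strands, was found in 10 of the 36 (27.8%), against 9.55% of all genes with a promoter. In Bst2 and Ifitm3 a GAS match shared bases with an ISRE match. A second promoter listed for Trim30a holds a match 36 bases upstream. A match of these letters describes the window and was not tested as a binding site.

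Every antiviral gene that passed under overload was lower than in sham muscle, in both genotypes. In cdKO mice 16 of 34 were lower and 0 higher, where 6.68% of the 8161 genes tested were lower and 6.37% higher. In control mice 23 of 34 were lower and 0 higher, where 11% of all genes tested were lower and 10.6% higher. The median log2 fold change of the 34 was -1.28 in cdKO and -1.94 in control mice, against -0.02 and -0.05 over all genes tested. It was below 0 for 28 of 34 in cdKO and 30 of 34 in control mice, as it was for 51.3% and 52.2% of all genes tested. In control mice the 3 tested transcription factors, both tested RNA sensors, and the 4 tested genes each of the PARP group and the ISG15 system fell. Irf7, Dhx58, Parp10, Usp18 and Trim21 of these groups were not tested. The IFITM genes, Bst2 and the proteasome activator genes did not pass in either genotype. All 16 genes called in cdKO were also called in control mice.

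A gene was kept for testing when about 3 libraries reached 13.5 CPM. Of the 34 tested members, 13 (38.2%) had fewer than 3 overloaded libraries at that level, against 16.7% of all genes tested. These members needed their sham libraries to enter the test, and that route favours a fall under overload. Fewer than 3 sham libraries at that level were found for 1 member (2.94%) and for 14.2% of all genes tested. Of the 23 genes called in control mice, 11 had 3 or more overloaded libraries at that level and 12 had fewer. The 11 were Stat2, Irf1, Irf9, Ddx58, Ifit1, Oasl2, Helz2, Trim25, Rnf213, Samhd1 and Sp100. The 12 included every tested gene of the PARP group, and Isg15 and Trim30a of the ISG15 system. The falls of these groups as a whole are thus favoured by the filter. The members were also chosen with earlier results of these data known. For both reasons the counts, shares and medians over the 34, above and below, are a description and not a test. In sorted bulk samples, fewer cells with a transcript and less of it per cell cannot be told apart.

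**Figure D1:**
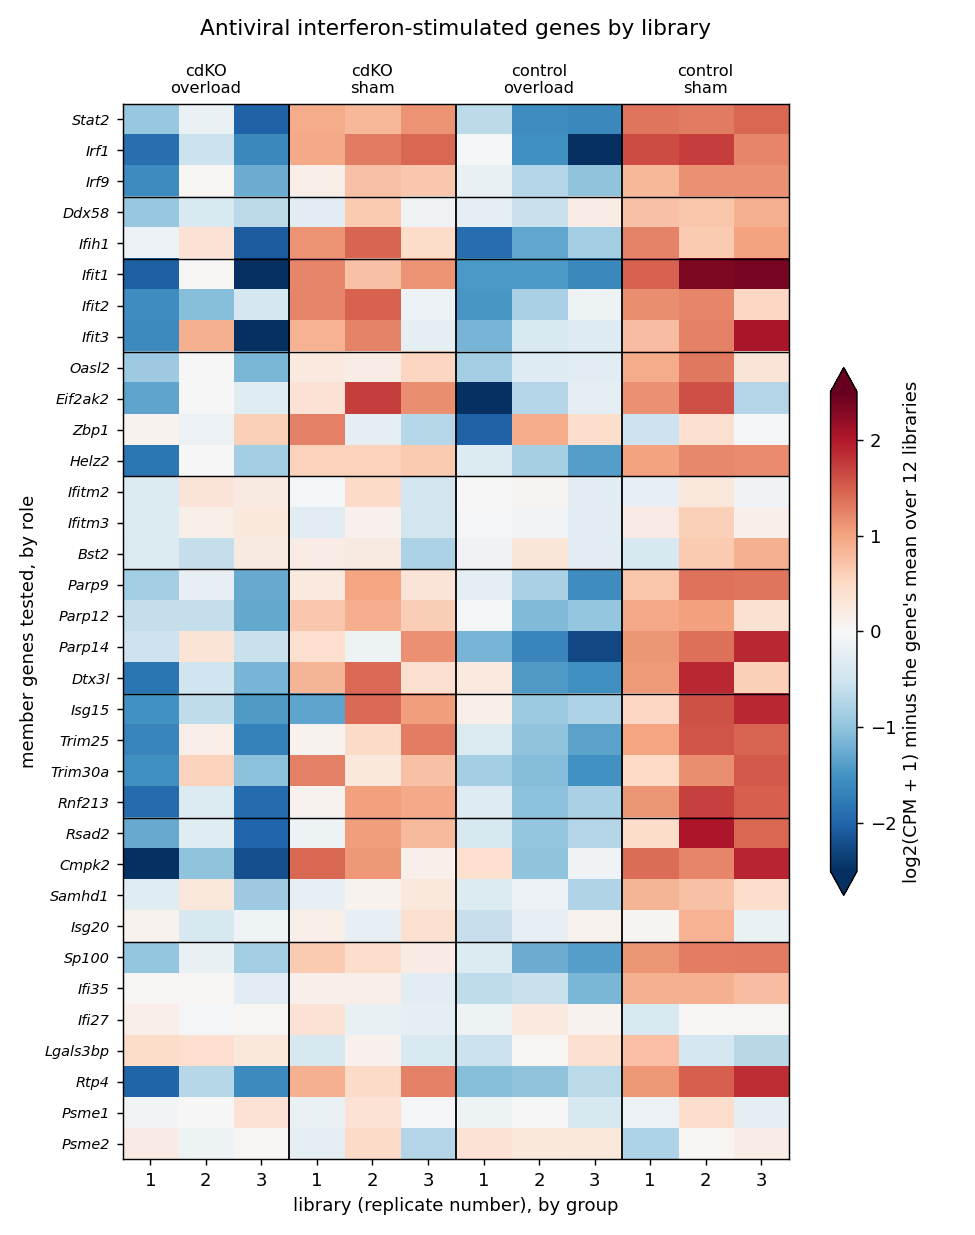
Level of each of the 34 tested members in each of the 12 libraries, as log2(CPM + 1) minus the gene's mean over the 12 libraries; columns are libraries grouped as cdKO overload, cdKO sham, control overload and control sham, rows are genes in blocks by role, and colours saturate at the ends of the scale. Most rows are blue in overloaded and red in sham libraries, while Ifitm2, Ifi27 and Psme1 stay pale.

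The 3 tested transcription factors among the members were lower under overload in both genotypes. Stat2, the STAT that is specific to type I and III interferon signals, had 15.4, 27.3 and 6.74 CPM in overloaded cdKO muscle, against 58.7, 55.2 and 67.7 CPM in sham cdKO muscle. Stat2 in control mice had 18.95, 9.74 and 9.34 CPM in overloaded control muscle, against 78.8, 76.6 and 84.2 CPM in sham control muscle. Every overloaded library was below every sham library of its genotype, and the log2 fold change of overload over sham was -1.88 ± 0.37, adjusted p = 0.00143 in cdKO and -2.73 ± 0.38, adjusted p = 1.59e-05 in control mice. Irf9, its DNA-binding partner, had 18.5, 58.5 and 23.6 CPM in overloaded cdKO muscle, against 64.2, 95.8 and 90.8 CPM in sham cdKO muscle. Irf9 in control mice had 49.97, 33.8 and 28.02 CPM in overloaded control muscle, against 101, 127 and 126 CPM in sham control muscle. The groups did not overlap in either genotype, with cdKO overload replicate 2 the highest of the overloaded libraries, and the log2 fold changes were -1.31 ± 0.34, adjusted p = 0.0114 in cdKO and -1.70 ± 0.33, adjusted p = 0.000721 in control mice. Irf1, a factor induced by interferon gamma and other stimuli that binds many of the same promoters, had 24.7, 65.01 and 30.3 CPM in overloaded cdKO muscle, against 183, 234 and 257 CPM in sham cdKO muscle. Irf1 in control mice had 93.04, 31.8 and 14.01 CPM in overloaded control muscle, against 295, 316 and 220.3 CPM in sham control muscle. It separated the groups in both genotypes (-2.48 ± 0.49, adjusted p = 0.00545 in cdKO, -2.69 ± 0.49, adjusted p = 0.00167 in control mice), and control overload replicate 1 was the highest of the overloaded libraries. Irf9 and Irf1 share bases with Rnf31 (44 counts) and Gm17334 (37 counts), so a few of their reads are uncertain. Irf7, the factor that amplifies interferon production, was not tested, with 8 counts summed over the overloaded cdKO, 8 over the sham cdKO, 5 over the overloaded control and 18 over the sham control libraries.

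Of the cytosolic RNA sensors, Ifih1 (MDA5), which detects long double-stranded RNA, had 20.1, 28.6 and 4.49 CPM in overloaded cdKO muscle, against 49.5, 62.5 and 30.9 CPM in sham cdKO muscle. Ifih1 in control mice had 5.17, 8.44 and 11.7 CPM in overloaded control muscle, against 54.05, 35.5 and 45.4 CPM in sham control muscle. Overloaded libraries lay below sham libraries in both genotypes, and the gene was lower in cdKO (-1.48 ± 0.43, adjusted p = 0.0245) and in control mice (-2.33 ± 0.48, adjusted p = 0.00113). Ddx58 (RIG-I), which detects RNA ends with a triphosphate, had 15.4, 23.4 and 19.1 CPM in overloaded cdKO muscle, against 25.7, 48.9 and 28.99 CPM in sham cdKO muscle. Ddx58 in control mice had 25.8, 20.8 and 35.02 CPM in overloaded control muscle, against 51.8, 50.6 and 58.3 CPM in sham control muscle. Its groups did not overlap either, but the differences were smaller: it was lower in control mice (-0.98 ± 0.33, adjusted p = 0.0343), a call that was lost under 7 of 21 alternatives, and did not pass in cdKO (-0.87 ± 0.35, adjusted p = 0.0984). Dhx58 (LGP2), a relative that regulates both sensors, was too low to test, at 2 to 6 counts in each library.

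The IFIT proteins bind the ends of foreign RNA and block its translation, and their genes lie next to each other on chromosome 19. Ifit1 showed the largest fall of all members in control mice. It had 15.4, 67.6 and 8.98 CPM in overloaded cdKO muscle, against 156, 111 and 147 CPM in sham cdKO muscle. Ifit1 in control mice had 24.1, 24.02 and 21.01 CPM in overloaded control muscle, against 187, 339 and 349.9 CPM in sham control muscle. The control overload libraries were close to each other and far below each sham library, and cdKO overload replicate 2 was the highest of the overloaded libraries. Overload lowered Ifit1 in cdKO (-2.16 ± 0.50, adjusted p = 0.0119) and in control mice (-3.65 ± 0.51, adjusted p = 0.000187). Ifit3 had 6.18, 39.00 and 1.12 CPM in overloaded cdKO muscle, against 38.5, 49.98 and 17.4 CPM in sham cdKO muscle. Ifit3 in control mice had 8.61, 15.6 and 16.3 CPM in overloaded control muscle, against 36.03, 50.6 and 87.5 CPM in sham control muscle. Its control groups did not overlap and its cdKO groups did, and the gene did not pass in cdKO (-1.24 ± 0.74, adjusted p = 0.31) or in control mice (-1.99 ± 0.72, adjusted p = 0.0702). Ifit2 had 1.54, 2.60 and 4.49 CPM in overloaded cdKO muscle, against 16.5, 19.8 and 5.80 CPM in sham cdKO muscle. Ifit2 in control mice had 1.72, 3.25 and 5.84 CPM in overloaded control muscle, against 15.8, 16.4 and 9.72 CPM in sham control muscle. The overloaded libraries lay below the sham libraries in both genotypes, on 1 to 5 counts each, and the gene did not pass in cdKO (-2.21 ± 0.78, adjusted p = 0.0618) or in control mice (-1.91 ± 0.76, adjusted p = 0.0738). Reads of Ifit3 can be shared with its near-identical copy Ifit3b, which had 120 counts over the 12 libraries.

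Genes for other RNA-binding effectors also fell. Helz2, a helicase that acts as a nuclear receptor co-activator, had 9.27, 35.1 and 19.1 CPM in overloaded cdKO muscle, against 53.2, 53.1 and 56.1 CPM in sham cdKO muscle. Helz2 in control mice had 27.6, 19.5 and 12.8 CPM in overloaded control muscle, against 72.1, 82.03 and 80.99 CPM in sham control muscle. The groups were apart in both genotypes (-1.32 ± 0.35, adjusted p = 0.0146 in cdKO, -2.004 ± 0.35, adjusted p = 0.000231 in control mice). Oasl2, of the oligoadenylate synthetase family that arms RNase L, had 20.1, 39.00 and 16.8 CPM in overloaded cdKO muscle, against 45.8, 43.7 and 56.1 CPM in sham cdKO muscle. Oasl2 in control mice had 20.7, 30.5 and 31.5 CPM in overloaded control muscle, against 74.3, 97.1 and 48.6 CPM in sham control muscle. The gene fell in control mice (-1.42 ± 0.33, adjusted p = 0.00282) and did not pass in cdKO (-0.93 ± 0.34, adjusted p = 0.0755), although the groups did not overlap there either. Eif2ak2 (PKR), the kinase that stops translation on sensing double-stranded RNA, had 6.18, 16.9 and 13.5 CPM in overloaded cdKO muscle, against 22.00, 58.3 and 38.7 CPM in sham cdKO muscle. Eif2ak2 in control mice had 1.72, 9.74 and 14.01 CPM in overloaded control muscle, against 38.3, 53.3 and 9.72 CPM in sham control muscle. Control sham replicate 3 lay inside the range of the overloaded control libraries, and Eif2ak2 was lower in cdKO (-1.70 ± 0.52, adjusted p = 0.0319) and in control mice (-1.98 ± 0.54, adjusted p = 0.0115). The call was lost under 6 of 21 alternatives in cdKO and 2 of 20 in control mice, the second pair being limma voom and the fit without control sham replicate 2. Zbp1, a sensor of Z-form nucleic acid, showed no separation of groups, and its log2 fold changes were -0.10 ± 0.65, adjusted p = 0.946 in cdKO and 0.32 ± 0.66, adjusted p = 0.77 in control mice. Oas1a (3 counts in all), the RNA-editing enzyme gene Adar (21) and the helicase gene Znfx1 (87) were not tested.

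The membrane proteins that block viral entry or release did not pass in either genotype. Ifitm3, which stops fusion of enveloped viruses with endosomes, had 632, 887 and 962 CPM in overloaded cdKO muscle, against 653, 855 and 579.9 CPM in sham cdKO muscle. Ifitm3 in control mice had 779, 762 and 658 CPM in overloaded control muscle, against 921, 1204 and 868 CPM in sham control muscle. The cdKO groups overlapped (0.25 ± 0.25, adjusted p = 0.577), while each overloaded control library was below each sham control library without passing (-0.45 ± 0.25, adjusted p = 0.205). Ifitm2, its close relative, had 221, 351 and 327 CPM in overloaded cdKO muscle, against 275, 393 and 203 CPM in sham cdKO muscle. Ifitm2 in control mice had 279, 295 and 231 CPM in overloaded control muscle, against 243, 343 and 262 CPM in sham control muscle. Its groups overlapped, and the 95% intervals of its log2 fold change were -0.50 to 0.57 in cdKO and -0.62 to 0.46 in control mice. Bst2 (tetherin), which holds budding virions at the cell surface, had 18.5, 15.6 and 28.1 CPM in overloaded cdKO muscle, against 27.5, 28.1 and 13.5 CPM in sham cdKO muscle. Bst2 in control mice had 22.4, 29.9 and 19.8 CPM in overloaded control muscle, against 18.02, 38.3 and 45.4 CPM in sham control muscle. These groups overlapped too (-0.17 ± 0.40, adjusted p = 0.843 in cdKO, -0.45 ± 0.39, adjusted p = 0.433 in control mice). Ifitm1 had 21 counts in all and was not tested, and reads may be shared between IFITM genes, which are near-identical in places.

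**Figure D2:**
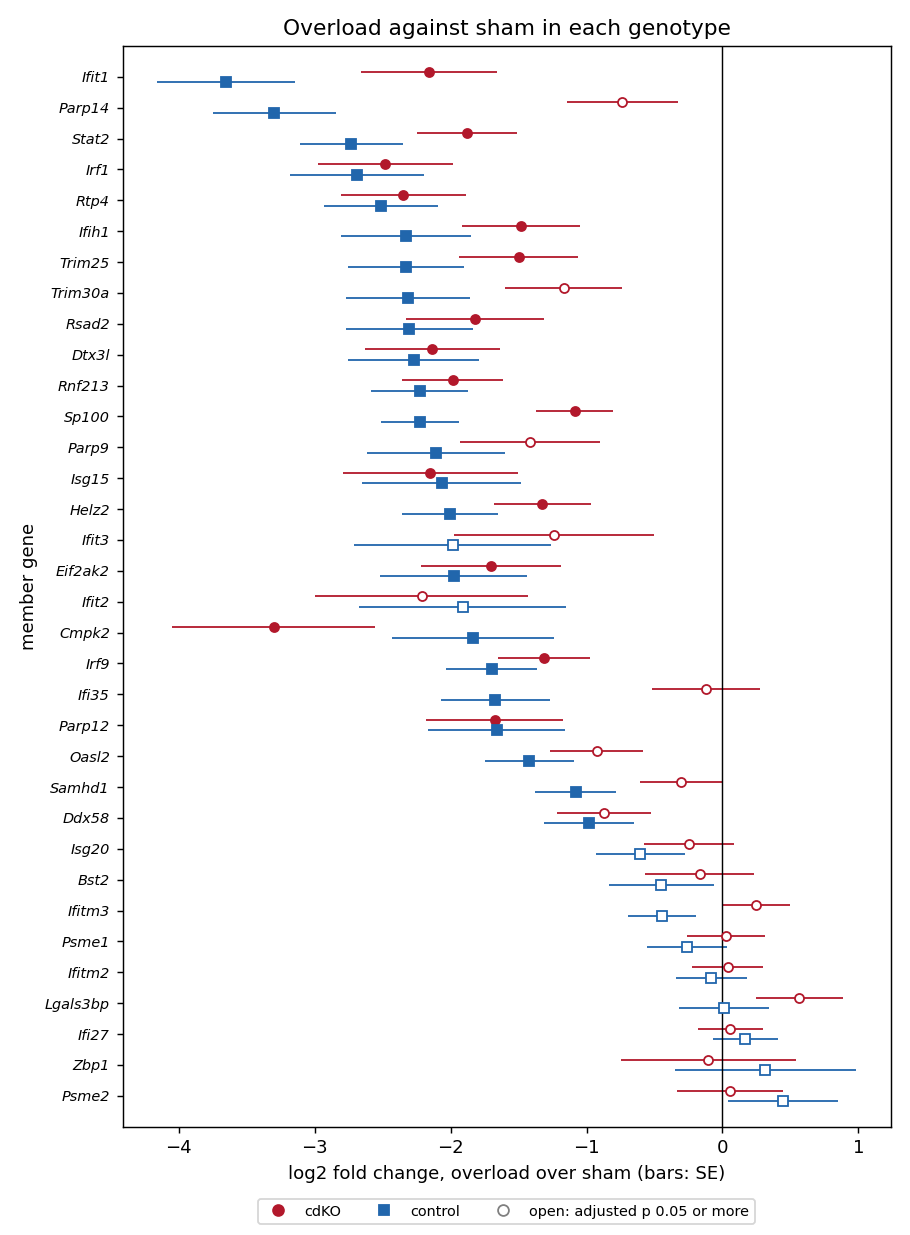
Log2 fold change of overload over sham for the 34 tested members, cdKO as circles and control as squares, bars giving 1 standard error (SE); filled symbols passed at an adjusted p under 0.05 and genes are ordered by the change in control mice. From Ifit1 (-2.16 in cdKO, -3.65 in control) the changes run up to Psme2 (0.05 in cdKO, 0.45 in control), and no filled symbol lies right of 0.

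The PARP enzymes of this programme add ADP-ribose to proteins, and DTX3L is the ubiquitin ligase that partners PARP9. Parp14 had 13.9, 26.00 and 13.5 CPM in overloaded cdKO muscle, against 27.5, 18.7 and 46.4 CPM in sham cdKO muscle. Parp14 in control mice had 8.61, 5.84 and 3.50 CPM in overloaded control muscle, against 45.04, 54.7 and 77.8 CPM in sham control muscle. In control mice the groups were far apart (-3.30 ± 0.45, adjusted p = 1.32e-05), while in cdKO they overlapped and the gene did not pass (-0.74 ± 0.41, adjusted p = 0.256). Dtx3l had 4.63, 13.00 and 7.86 CPM in overloaded cdKO muscle, against 34.8, 52.1 and 25.1 CPM in sham cdKO muscle. Dtx3l in control mice had 22.4, 6.49 and 5.84 CPM in overloaded control muscle, against 40.5, 72.5 and 29.2 CPM in sham control muscle. It separated the groups in both genotypes and was lower in cdKO (-2.13 ± 0.50, adjusted p = 0.00609) and in control mice (-2.27 ± 0.48, adjusted p = 0.00143). Parp9, which starts head to head with Dtx3l on chromosome 16 and shares 682 bases with it, had 6.18, 10.4 and 4.49 CPM in overloaded cdKO muscle, against 14.7, 24.99 and 15.5 CPM in sham cdKO muscle. Parp9 in control mice had 10.3, 6.49 and 3.50 CPM in overloaded control muscle, against 20.3, 32.8 and 32.4 CPM in sham control muscle. Parp9 was lower in control mice (-2.11 ± 0.51, adjusted p = 0.00397) and did not pass in cdKO (-1.42 ± 0.52, adjusted p = 0.0713), although the groups did not overlap in either. Without a stated strand setting, reads of Parp9 and of the antisense gene Gm15564, which had 424 counts over the 12 libraries, cannot be told apart. Parp12 was lower in both (-1.68 ± 0.51, adjusted p = 0.0285 in cdKO, -1.66 ± 0.50, adjusted p = 0.0188 in control mice), and the call was lost under 5 of 21 alternatives in cdKO and 6 of 21 in control mice. Parp10, with 26 counts, was not tested, and it overlaps Plec.

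All 4 tested genes of the ISG15 system and its ubiquitin ligases fell in control mice, and 3 of the 4 fell in cdKO. Rnf213, a very large ligase that coats bacteria and lipid droplets, had 12.4, 39.00 and 12.3 CPM in overloaded cdKO muscle, against 53.2, 102 and 96.6 CPM in sham cdKO muscle. Rnf213 in control mice had 39.6, 24.02 and 28.02 CPM in overloaded control muscle, against 108, 164 and 143 CPM in sham control muscle. The groups were apart in both genotypes (-1.99 ± 0.38, adjusted p = 0.00116 in cdKO, -2.23 ± 0.35, adjusted p = 8.84e-05 in control mice), and part of its locus is also covered by A930037H05Rik on the other strand (249 counts). Trim25, the ligase that activates RIG-I, had 9.27, 35.1 and 8.98 CPM in overloaded cdKO muscle, against 33.00, 43.7 and 77.3 CPM in sham cdKO muscle. Trim25 in control mice had 24.1, 14.9 and 11.7 CPM in overloaded control muscle, against 63.1, 94.3 and 87.5 CPM in sham control muscle. The control groups did not overlap (-2.33 ± 0.43, adjusted p = 0.0005), and the cdKO groups did through cdKO overload replicate 2 (-1.50 ± 0.44, adjusted p = 0.026). Trim30a, a mouse regulator of innate signalling, had 9.27, 42.9 and 13.5 CPM in overloaded cdKO muscle, against 69.7, 34.4 and 48.3 CPM in sham cdKO muscle. Trim30a in control mice had 15.5, 12.98 and 9.34 CPM in overloaded control muscle, against 40.5, 65.6 and 84.2 CPM in sham control muscle. Trim30a was lower in control mice (-2.31 ± 0.46, adjusted p = 0.000882) and did not pass in cdKO (-1.17 ± 0.43, adjusted p = 0.0751), where cdKO overload replicate 2 exceeded a sham library; its relative Trim30d had 133 counts and may share reads. Isg15 itself averaged 4.32 ± 1.89 CPM in overloaded cdKO and 19.02 ± 13.8 CPM in sham cdKO muscle (SD, n = 3 each). Its control means were 7.70 ± 3.79 CPM under overload and 30.7 ± 13.5 CPM in sham muscle (SD, n = 3 each). Isg15 was lower in cdKO (-2.15 ± 0.64, adjusted p = 0.0276), where sham replicate 1 lay among the overloaded libraries, and in control mice (-2.07 ± 0.59, adjusted p = 0.0128). Its call was lost under 5 of 20 alternatives in cdKO and 5 of 21 in control mice. Usp18, which removes ISG15 and damps the receptor (63 counts), and the antibody receptor gene Trim21 (72 counts) were not tested.

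Among the enzymes that act on nucleotides or RNA, Rsad2 (viperin), which makes a chain-terminating nucleotide, had 6.18, 13.00 and 3.37 CPM in overloaded cdKO muscle, against 14.7, 34.4 and 28.99 CPM in sham cdKO muscle. Rsad2 in control mice had 12.1, 7.79 and 9.34 CPM in overloaded control muscle, against 22.5, 68.4 and 45.4 CPM in sham control muscle. It separated the groups in both genotypes (-1.82 ± 0.51, adjusted p = 0.0186 in cdKO, -2.31 ± 0.47, adjusted p = 0.00095 in control mice). Cmpk2, a mitochondrial nucleotide kinase that lies 12751 bases from Rsad2 on chromosome 12 in the opposite direction, had 0, 3.90 and 1.12 CPM in overloaded cdKO muscle, against 25.7, 19.8 and 9.66 CPM in sham cdKO muscle. Cmpk2 in control mice had 12.1, 3.89 and 8.17 CPM in overloaded control muscle, against 24.8, 21.9 and 35.6 CPM in sham control muscle. The groups did not overlap. In cdKO the fall (-3.30 ± 0.75, adjusted p = 0.00474) rested on 4 counts over the overloaded libraries against 38 over the sham libraries, a ratio of 0.0923 with a 95% counting interval of 0.0239 to 0.256, and in control mice it was -1.83 ± 0.60, adjusted p = 0.0287, a call lost under 7 of 21 alternatives. Samhd1, which breaks down deoxynucleotides, had 46.3, 70.2 and 30.3 CPM in overloaded cdKO muscle, against 49.5, 61.4 and 69.6 CPM in sham cdKO muscle. Samhd1 in control mice had 44.8, 51.9 and 33.9 CPM in overloaded control muscle, against 104, 95.7 and 77.8 CPM in sham control muscle. Samhd1 was lower in control mice without overlap (-1.08 ± 0.30, adjusted p = 0.0106), while in cdKO the groups overlapped (-0.30 ± 0.30, adjusted p = 0.568). For the exonuclease gene Isg20 the groups overlapped in both genotypes (-0.24 ± 0.33, adjusted p = 0.693 in cdKO, -0.60 ± 0.33, adjusted p = 0.191 in control mice). Mx1, a GTPase that traps viral capsids, had 9 counts in all and was not tested. The deposited annotation labels Mx1 a polymorphic pseudogene, while GENCODE labels it protein coding.

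The remaining members split. Sp100, a component of nuclear bodies that silence viral DNA, had 38.6, 67.6 and 41.5 CPM in overloaded cdKO muscle, against 121, 105 and 88.9 CPM in sham cdKO muscle. Sp100 in control mice had 60.3, 31.8 and 29.2 CPM in overloaded control muscle, against 167, 189 and 191 CPM in sham control muscle. No library crossed between groups, and Sp100 was lower in cdKO (-1.09 ± 0.29, adjusted p = 0.013) and in control mice (-2.23 ± 0.29, adjusted p = 7.23e-06, the smallest adjusted p of the 34). Rtp4, a chaperone of receptors at the cell surface, had 3.09, 9.10 and 4.49 CPM in overloaded cdKO muscle, against 29.3, 21.9 and 38.7 CPM in sham cdKO muscle. Rtp4 in control mice had 6.89, 7.14 and 9.34 CPM in overloaded control muscle, against 33.8, 45.1 and 58.3 CPM in sham control muscle. Its falls were of nearly equal size in cdKO (-2.35 ± 0.46, adjusted p = 0.0014) and control mice (-2.51 ± 0.42, adjusted p = 0.000133), without overlap. Ifi35, an interferon-induced leucine zipper protein, had 16.99, 16.9 and 13.5 CPM in overloaded cdKO muscle, against 18.3, 18.7 and 13.5 CPM in sham cdKO muscle. Ifi35 in control mice had 10.3, 11.03 and 7.004 CPM in overloaded control muscle, against 31.5, 31.4 and 29.2 CPM in sham control muscle. Ifi35 was lower in control mice without overlap (-1.67 ± 0.40, adjusted p = 0.00379) and did not pass in cdKO, where the groups overlapped (-0.12 ± 0.40, adjusted p = 0.892).

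The last 4 tested members did not pass in either genotype. The proteasome activator genes Psme1 and Psme2 had log2 fold changes of 0.03 ± 0.29 and 0.05 ± 0.39 in cdKO and -0.26 ± 0.30 and 0.45 ± 0.40 in control mice, with adjusted p between 0.454 and 0.97. They lie 5911 bases apart on chromosome 14, and Psme2 lies 12457 bases from Irf9, which fell. Ifi27, a mitochondrial protein gene, stayed between 104 and 172 CPM in all 12 libraries (0.06 ± 0.24, adjusted p = 0.913 in cdKO, 0.17 ± 0.24, adjusted p = 0.649 in control mice). Lgals3bp, a secreted glycoprotein that binds galectin 3, was above sham in each overloaded cdKO library without passing (0.57 ± 0.32, adjusted p = 0.267), and its control groups overlapped (0.01 ± 0.33, adjusted p = 0.987). Xaf1, which antagonises an inhibitor of apoptosis, had 51 counts and was not tested.

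**Figure D3:**
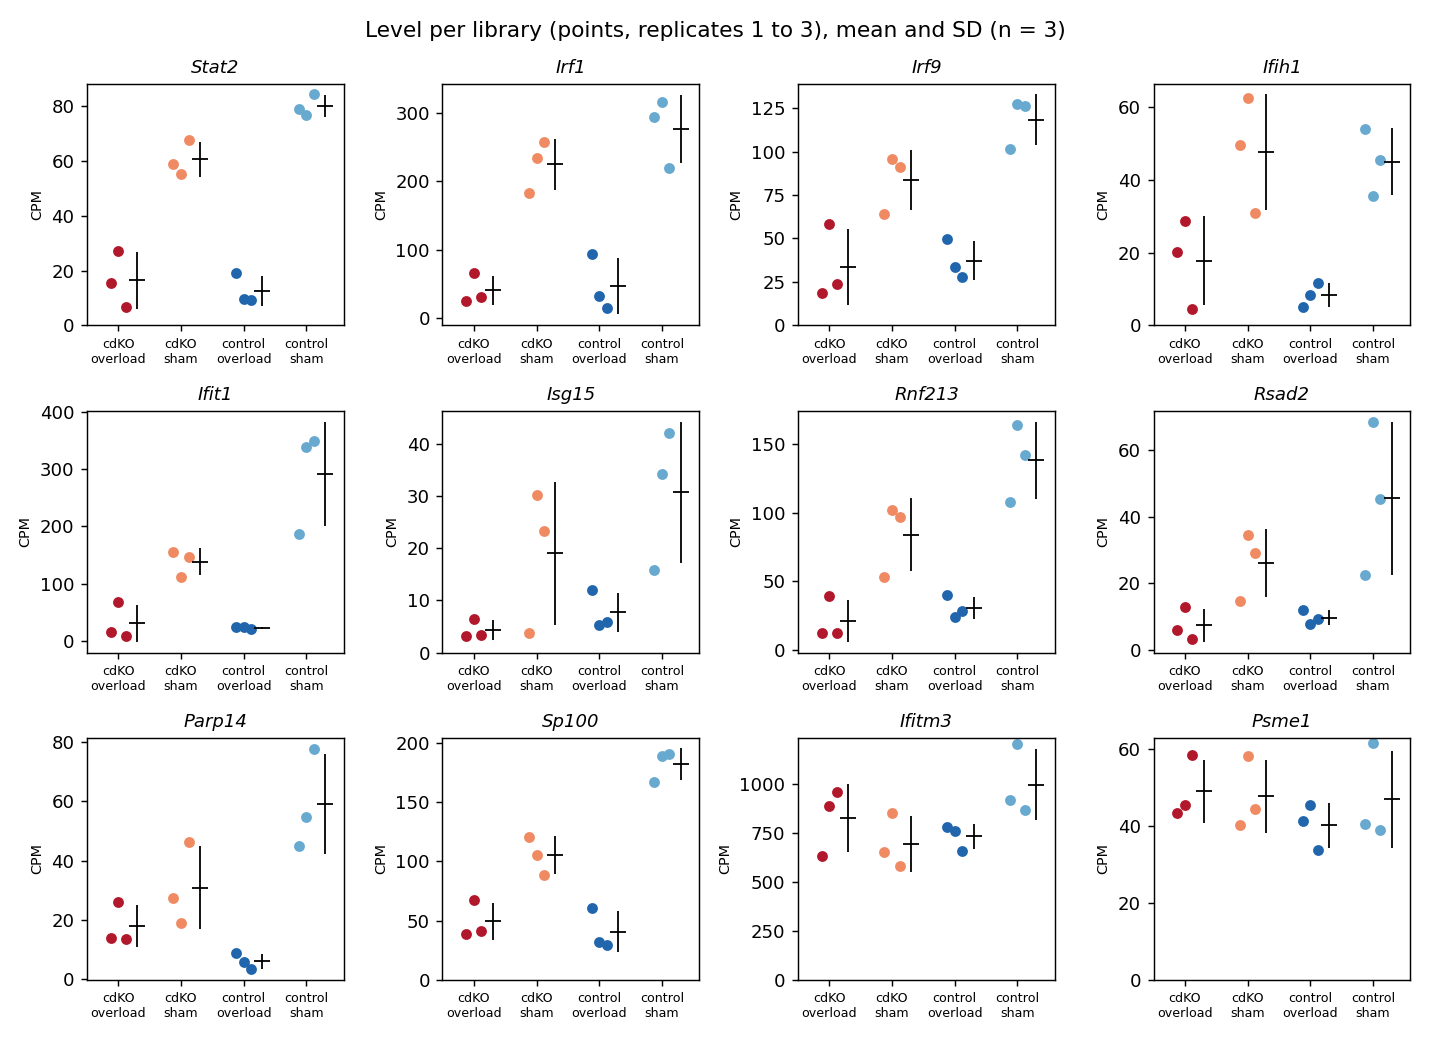
CPM in each library for 12 members, with points for the replicates and a bar for the mean and SD (n = 3) of cdKO overload, cdKO sham, control overload and control sham. Stat2 and Sp100 show clear gaps between load groups in both genotypes, Parp14 shows one in control mice, and Ifitm3 and Psme1 overlap in cdKO.

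By non-overlap of the libraries, 18 of 34 members were lower under overload in cdKO, where 14.7% of all genes tested were, and 25 of 34 were lower in control mice, where 18.9% were. Higher without overlap was 1 member in each, Lgals3bp in cdKO (15.4% of all genes tested) and Psme2 in control mice (18%). The 7 called in control mice and not in cdKO were Ddx58, Oasl2, Parp9, Parp14, Trim30a, Samhd1 and Ifi35, and the test of the difference between genotypes passed for none of them. The count in cdKO depended on single libraries: it was 7 without cdKO overload replicate 1, 7 without replicate 3, and 21 without replicate 2. Replicate 2 was the highest of its group for 24 of the 34 members (70.6%), against 36.5% of all genes tested, and control overload replicate 1 was the highest of its group for 18 of 34 (52.9%), against 39.5%. Under all 21 alternatives together, 15 of the 23 calls in control mice and 7 of the 16 in cdKO were kept wherever the gene was tested. Besides the losses given with Ddx58, Eif2ak2, Parp12, Isg15 and Cmpk2, the cdKO call was lost under 5 alternatives for Ifih1, 4 for Rsad2, 3 each for Sp100 and Trim25, and 2 each for Helz2 and Irf9. The control call was lost under 4 alternatives for Samhd1 and 1 each for Ifi35 and Oasl2.

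Between cdKO and control mice no member passed, in overloaded or in sham muscle. In overloaded muscle 0 of 34 members passed, where 3 of the 8161 genes (0.0368%) did. Without overlap, 2 members (Parp14 and Ifi35) were higher in cdKO and 1 (Psme2) lower, where 5.38% and 5.31% of all genes tested were. By sign, 16 of 34 members and 47% of all genes tested were lower in cdKO. At an unadjusted p under 0.05 there were 2 of 34, where 6.97% of all genes tested were: Parp14 was at 1.60 ± 0.48 (adjusted p = 0.398) and Cmpk2 at -1.99 ± 0.81 (adjusted p = 0.642). DESeq2, which gave an adjusted p for 5 members here, and limma voom each called 0 as well. The median log2 fold change, cdKO over control, was 0.08 for the members and 0.03 for all genes tested, and the 95% interval of a member had a median half-width of 0.93. That interval is not adjusted for the number of genes, and the adjusted test needs a larger difference.

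In sham muscle, cdKO over control, 0 of 34 passed, where 1 of the 8161 genes (0.0123%) did, and DESeq2 and limma voom called 0. The members' log2 fold changes had a median of -0.51, against 0.01 over all genes tested, and 27 of 34 were below 0, as were 48.6% of all genes tested. At an unadjusted p under 0.05 there were 7 members, all with a negative fold change, where 1.96% of all genes tested were lower at that level: Ifit1 (-1.09 ± 0.44), Parp14 (-0.96 ± 0.38), Ifi35 (-0.85 ± 0.39), Sp100 (-0.79 ± 0.27), Rnf213 (-0.71 ± 0.33), Samhd1 (-0.63 ± 0.30) and Ifitm3 (-0.52 ± 0.25). For each of the 34 the adjusted p was 0.999. Sham cdKO libraries lay below sham control libraries without overlap for 10 of 34 members, where 4.45% of all genes tested did, and above them for 0, where 5.44% did. As an example, Sp100 had 121, 105 and 88.9 CPM in sham cdKO and 167, 189 and 191 CPM in sham control muscle. The direction was shared by most members and no member passed.

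**Figure D4:**
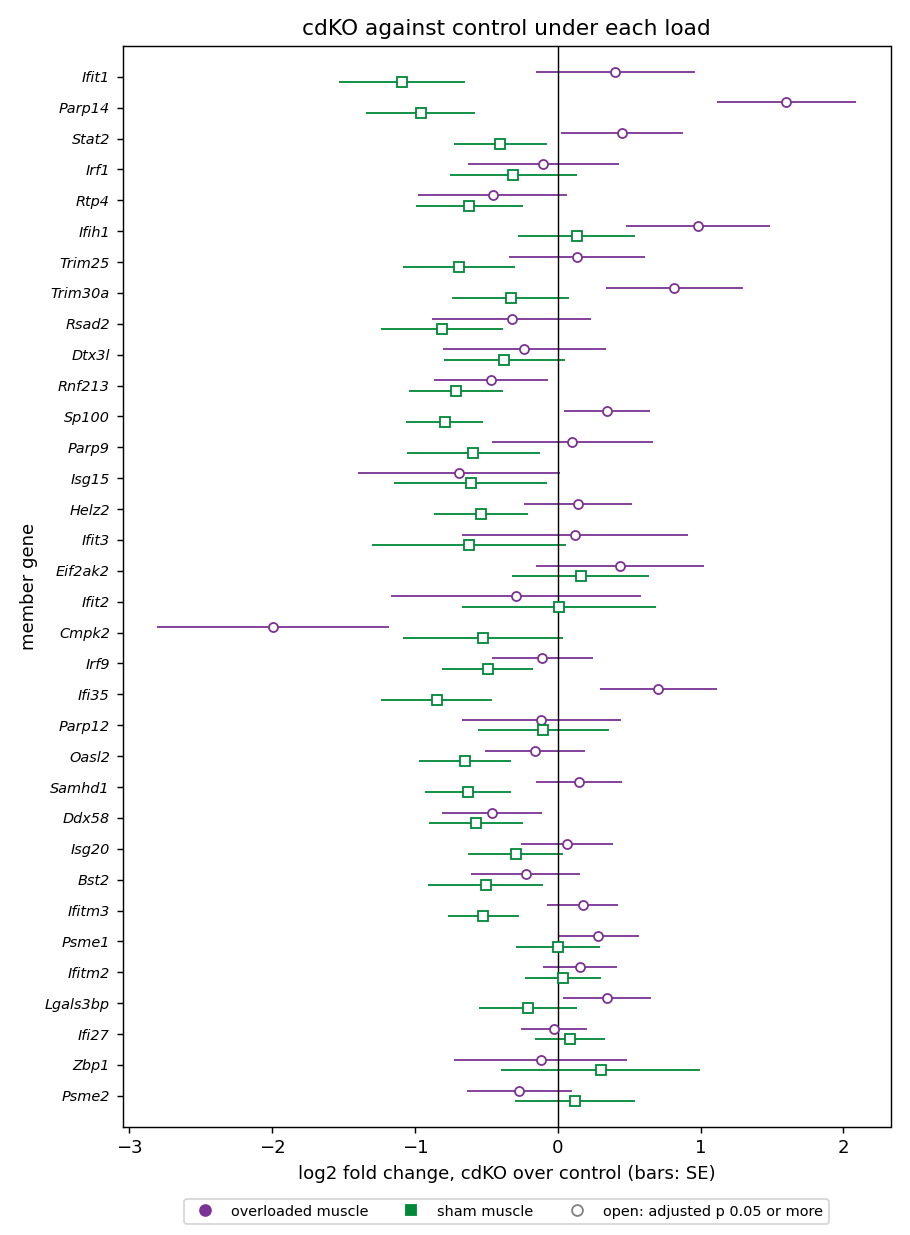
Log2 fold change of cdKO over control for the 34 tested members, overloaded muscle as circles and sham muscle as squares, bars giving 1 SE, with genes in the order of their overload change in control mice. All symbols are open because no member passed, sham values lie mostly left of 0 and overloaded values lie on both sides.

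The interaction asks whether overload changed a member differently in cdKO than in control mice, and 0 of 34 members passed, as did 0 of the 8161 genes (0.00%). A positive value means a smaller fall or a larger rise in cdKO. At an unadjusted p under 0.05 there were 3 members, where 5.23% of all genes tested were: Parp14 (2.56 ± 0.62, adjusted p = 0.298), Ifi35 (1.55 ± 0.56, adjusted p = 0.873) and Sp100 (1.14 ± 0.41, adjusted p = 0.813). DESeq2 and limma voom called 0 members. The median over the members was 0.37, against 0.02 over all genes tested, and 7 of 34 were below 0, as were 48.3% of all genes tested. The interaction uses the same libraries as the sham comparison above. For Parp14, the member with the largest value, the levels in overloaded muscle were 13.9, 26.00 and 13.5 CPM in cdKO and 8.61, 5.84 and 3.50 CPM in control mice, without overlap.

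Genes upstream of the antiviral programme were taken from lists chosen by name. No interferon itself was detected at a testable level: of 21 ligand genes, 0 were tested, and the counts over all 12 libraries were 2 for Ifna13, 2 for Ifnk, 1 for Ifnab, 1 for Ifnz and 0 for the others. Among 7 tested receptor and JAK kinase genes, Ifngr1, a chain of the interferon gamma receptor, was lower in cdKO (-1.02 ± 0.23, adjusted p = 0.00533) and in control mice (-1.03 ± 0.24, adjusted p = 0.00258). Ifngr2, the partner chain, was higher in control mice (1.56 ± 0.30, adjusted p = 0.000678) and was at 0.85 ± 0.29, adjusted p = 0.0549 in cdKO. The type I receptor genes Ifnar1 and Ifnar2 did not pass in either genotype.

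Of the STAT and IRF genes outside the members, Stat3 was lower in control mice (-0.79 ± 0.24, adjusted p = 0.0206) and did not pass in cdKO (-0.07 ± 0.24, adjusted p = 0.891). Irf8 was lower in control mice with overlapping groups (-2.17 ± 0.62, adjusted p = 0.0142) and did not pass in cdKO (-0.53 ± 0.59, adjusted p = 0.622). Among 5 tested sensing adaptors and kinases 0 passed in cdKO and 1 in control mice, Myd88, the adaptor of toll-like receptors (-1.09 ± 0.26, adjusted p = 0.00359). Of 6 tested negative regulators, Socs3, an inhibitor of JAK kinases, was lower in cdKO (-1.98 ± 0.50, adjusted p = 0.0205) and in control mice (-2.79 ± 0.52, adjusted p = 0.00189). Socs1, of the same family, was lower in control mice (-1.61 ± 0.29, adjusted p = 0.000262) and did not pass in cdKO (-0.57 ± 0.29, adjusted p = 0.209). No other tested negative regulator passed in either genotype.

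Other measures moved with load. Of 19 immediate early genes, which are also raised when tissue is dissociated, 8 were lower and 1 higher in cdKO, and 13 were lower and 1 higher in control mice. Their summed level was 7540 to 10200 CPM in overloaded cdKO against 14100 to 17600 CPM in sham cdKO, and 7170 to 9180 CPM in overloaded control against 13600 to 16400 CPM in sham control muscle. The 8 endothelial markers summed to 38.2 to 59.8 CPM in overloaded cdKO against 84.3 to 189 CPM in sham cdKO and 18.8 to 99.9 CPM in overloaded control against 109 to 185 CPM in sham control muscle, and 2 of 5 tested were lower in cdKO and 1 in control mice. The 8 pericyte and smooth muscle markers summed to 360 to 369 CPM in overloaded cdKO against 412 to 603 CPM in sham cdKO and 187 to 289 CPM in overloaded control against 437 to 560 CPM in sham control muscle, and 1 of 6 tested was lower in cdKO and 2 in control mice. Most of that sum was Steap4, Vtn and Cspg4. Steap4 alone averaged 257.1 CPM in overloaded and 277.5 CPM in sham cdKO, and 138.8 CPM in overloaded and 273.2 CPM in sham control muscle. The 6 muscle stem cell markers summed to 79.3 to 114 CPM in overloaded cdKO against 56.2 to 66 CPM in sham cdKO and 72.7 to 94.6 CPM in overloaded control against 51.8 to 64.3 CPM in sham control muscle. Under overload most of that sum was Vcam1. Its mean was 72.49 CPM in overloaded and 30.65 CPM in sham cdKO, and 66.85 CPM in overloaded and 23.56 CPM in sham control muscle. Des went the other way, from 22.95 CPM in sham to 13.45 CPM in overloaded cdKO and from 21.3 to 9.07 CPM in control muscle. Pax7, Myf5, Myod1 and Myog were not tested. Of the 2 tested, Vcam1 was higher in cdKO (1.24 ± 0.30, adjusted p = 0.00706) and in control mice (1.44 ± 0.32, adjusted p = 0.00196), and Des was lower in control mice (-1.35 ± 0.48, adjusted p = 0.0448). The part of these measures in the fall of the antiviral genes was not tested.

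The myeloid markers summed to 8.98 to 55.9 CPM in overloaded cdKO and 26.0 to 47.7 CPM in sham cdKO muscle. In control mice they summed to 10.4 to 63.7 CPM in overloaded and 43.7 to 60.8 CPM in sham muscle. Their counts over the 12 libraries ran from 2 each for C1qa and S100a8 to 132 for Ptprc. Ptprc alone was tested, and it did not pass under overload in either genotype. The lymphocyte markers summed to 13.0 to 15.7, 2.08 to 23.8, 0 to 22.4 and 16.4 to 42.1 CPM in the same order of groups. Their counts ran from 1 for Nkg7 to 42 for Cd3g, and none was tested. The dendritic cell list has Bst2, a member, in common with the antiviral genes. Without Bst2 its markers summed to 19.1 to 32.4, 23.8 to 58, 15.6 to 39.6 and 30.1 to 48.6 CPM in that order. Their counts ran from 6 for Itgax and 9 for Siglech to 190 for Zbtb46. The share of Y-linked counts was 71.6 and 87.5 raw CPM in control overload replicates 2 and 3, and 123.5 to 315 raw CPM in the other libraries. With that share as a covariate, 14 members were lower in cdKO and 21 in control mice.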

How the data were processed

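RNA was measured in 12 libraries of sorted Pdgfra+ cells, 3 in each of 4 groups. Per the labels' protocols, 1000 cells went into each tube and libraries followed a published low-input method that tags 3′ ends. The authors deposited raw counts per gene. GRCm38, HISAT2 2.2.1, Trim Galore 0.6.6, DESeq2 1.26.0 and featureCounts 2.0.1 are named in the submitters' processing notes. Neither the strand setting nor any use of molecular identifiers is stated there, so an interval or floor from counts holds for counting error alone.

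The deposited counts were tested in R 4.3.3 with edgeR 4.0.16: filterByExpr (minimum count of 10), TMM scaling, and a robust quasi-likelihood fit with a mean per group over all 12 libraries. The threshold was a two-sided adjusted p of 0.05 (Benjamini-Hochberg over all 8161 genes tested), and SE was taken as |log2 fold change|/√F. The test was tried on simulated data that gave every gene the same variation among libraries. That setting is simpler than these data, so no call here rests on the trial. CPM is not divided by length, because libraries tag 3′ ends. Groups did not overlap where every library of a group lay beyond every library of the other.

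The members and lists were chosen with earlier results of these data known. Named are all 45 members, the values per library of up to 3 members a role with the smallest p under overload in control mice, and the genes of the upstream lists that passed. Of the genes on those lists, 1 was left out of the text and is not reported here. Alternatives were DESeq2 1.42.0, limma 3.58.1 (voom with quality weights), DESeq2 size factors, upper-quartile factors, no filter, a non-robust fit, a replicate block, the groups compared alone, the Y-linked share as a covariate, and each library left out. Replicate numbers were not taken to pair samples, since the labels do not say that they do. Promoters came from RefSeq and gene bounds from the GENCODE annotation of GRCm38.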

Additional observations from a re-analysis of the deposited data

How the results depend on the processing

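Over 21 alternatives the log2 fold changes of the called members were refitted 815 times: 747 kept direction and threshold, 68 no longer passed and 0 changed sign. Part of the 747 could hardly fail, since leaving out a library of a genotype does not change the libraries compared in the other. Each fit without a cdKO library kept all 23 control calls, and each fit without a control library kept all 16 cdKO calls. The count of lower members under overload in cdKO was 16, and 15 with DESeq2, 16 with limma voom, 14 without the count filter, 17 with a non-robust fit, 13 on the groups compared alone, and 7 to 21 when a library was left out, with 7 without cdKO overload replicate 1 and 7 without cdKO overload replicate 3. The count in control mice was 23, and 22 with DESeq2, 23 with limma voom, 19 without the count filter, and 16 to 24 when a library was left out. The cdKO against control and interaction counts were 0 under every alternative run. With the replicate block the counts were 16 in cdKO and 24 in control mice, the 24th being Ifit3. Same-numbered libraries of different groups had correlations of their deviations between -0.228 and 0.268, which does not settle whether the numbers pair samples. The scaling alternatives shifted the median log2 fold change over all genes by 0.042 or less. The interaction was not run on the groups compared alone, since it uses all of them. Depth limits the 11 untested members, which had 3 to 87 counts over 12 libraries, while the tested ones had 71 to 7173.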
